A study of Mus musculus with 4 samples.

Results

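Respiratory complex I (NADH:ubiquinone oxidoreductase) genes were followed in Dalton's lymphoma ascites (DLA) cells, a murine tumour passed between animals that lives unattached in the peritoneal fluid. The members were all probe sets whose annotation lists a symbol starting with Nduf, which gave 51 of the 35556 probe sets of the array. Of these, 48 listed 1 symbol and covered 43 genes: 34 subunits of complex I, 7 assembly factors (Ndufaf) and 2 genes, Ndufa4 and Ndufa4l2, that are not counted as subunits here. The other 3 probe sets listed several symbols (Ndufb4 with Ndufb4b, and Ndufs5 with Ndufs5-ps) and are described apart. The accessory subunit Ndufb1 and the factor Ndufaf8 were not analysed here.

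The irradiated group held 2 arrays of cells from tumour-bearing male Swiss albino mice whose whole body received 2 Gy of electron radiation on day 8 after transplantation. The control group held 2 arrays of cells from tumour-bearing mice of the same sex and strain that were not irradiated. All mice were 4 to 5 months old, and cells were taken from the peritoneal cavity 48 h after the exposure. The labels call the arrays biological replicates. The sources used here do not say whether 1 array stands for 1 mouse or for several. The p-values thus rest on the spread between these samples, moderated by the spread over all genes, and not on a known spread between mice. The tumour cells were not separated from cells of the host according to the labels' protocols.

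Complex I takes electrons from NADH, passes them to ubiquinone along a chain of iron-sulfur clusters in its peripheral arm, and pumps protons through its membrane arm. Its core subunits carry out this chemistry and are encoded partly in the nucleus and partly in mitochondrial DNA, while the accessory subunits surround and stabilise the core. The assembly factors join the modules in steps, modify single subunits, and are not part of the finished enzyme. Proliferating tumour cells use complex I for ATP and to regenerate NAD+ for aspartate synthesis.

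Values are log2 intensities normalised by the authors with RMA, so a difference of 1 is a 2-fold change. Array medians lay between 6.43 and 6.46, and the number of arrays limits the precision. Across 19938 genes the SD of the difference between the irradiated arrays was 0.362, against 0.167 between the control arrays. The median distance between replicates was 0.18 for irradiated and 0.08 for control arrays over Nduf genes, against 0.2 and 0.1 over all genes. A T-cell marker list had 1 of 11 genes as bright as the median gene or brighter, a B-cell list 0 of 6, a pan-leukocyte list 2 of 6 and an epithelial list 5 of 6. Among them Cd3e had 6.17 and 6.01 on the irradiated and 6.23 and 6.35 on the control arrays, and Ptprc 5.57 and 5.49 against 5.63 and 5.64. Lat, a T-cell adaptor and the 1 bright gene of its list, had 8.80 and 8.87 against 9.26 and 9.08. Lcp1, a leukocyte actin-bundling protein, had 11.78 and 11.96 against 11.19 and 11.30. It was higher in irradiated cells, while 5 of the 6 pan-leukocyte genes were lower. Krt8 of the epithelial list was brighter than these, with 13.93 and 13.30 against 14.07 and 14.11. Probe sets differ in brightness, so these values neither show nor deny that the cells are lymphoid.

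Irradiated and control cells were set against each other to ask what exposure of the animal did to the RNA of its tumour cells. Most complex I subunit genes had slightly higher values in irradiated cells, while most Ndufaf assembly factors had lower values or differences near 0. Of 34 subunit genes, 27 were higher and 7 lower, with a median log2 difference of 0.16. Of 7 Ndufaf genes, 2 were higher, 4 lower and 1 had a difference of 0, with a median of −0.15. Over all 19938 genes the median was −0.03, with 43.4% higher and 55.4% lower. No single Nduf gene passed the adjusted threshold. In bulk samples, fewer cells of a type and less RNA per cell cannot be told apart.

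Single-gene differences were tested with limma and Benjamini-Hochberg adjustment over all genes at 0.05. Of the 43 Nduf genes 0 passed, and the lowest adjusted p was 0.442, for Ndufs4, whereas 0.00502% of all genes passed. At an unadjusted p under 0.05, 2 Nduf genes were higher (Ndufs4 and Ndufa1; 5.21% of all genes) and 1 was lower (Ndufaf5; 5.1% of all genes). The lower irradiated value exceeded the higher control value for 18 Nduf genes (17.8% of all genes) and the reverse held for 7 (23.9% of all genes). Of the 34 subunit genes, 17 were apart upward and 2 downward. Of the 7 Ndufaf genes, 0 were apart upward and 4 downward. The members share the same 4 arrays, so these counts describe the arrays and are no test of the gene list.

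**Figure D1:**
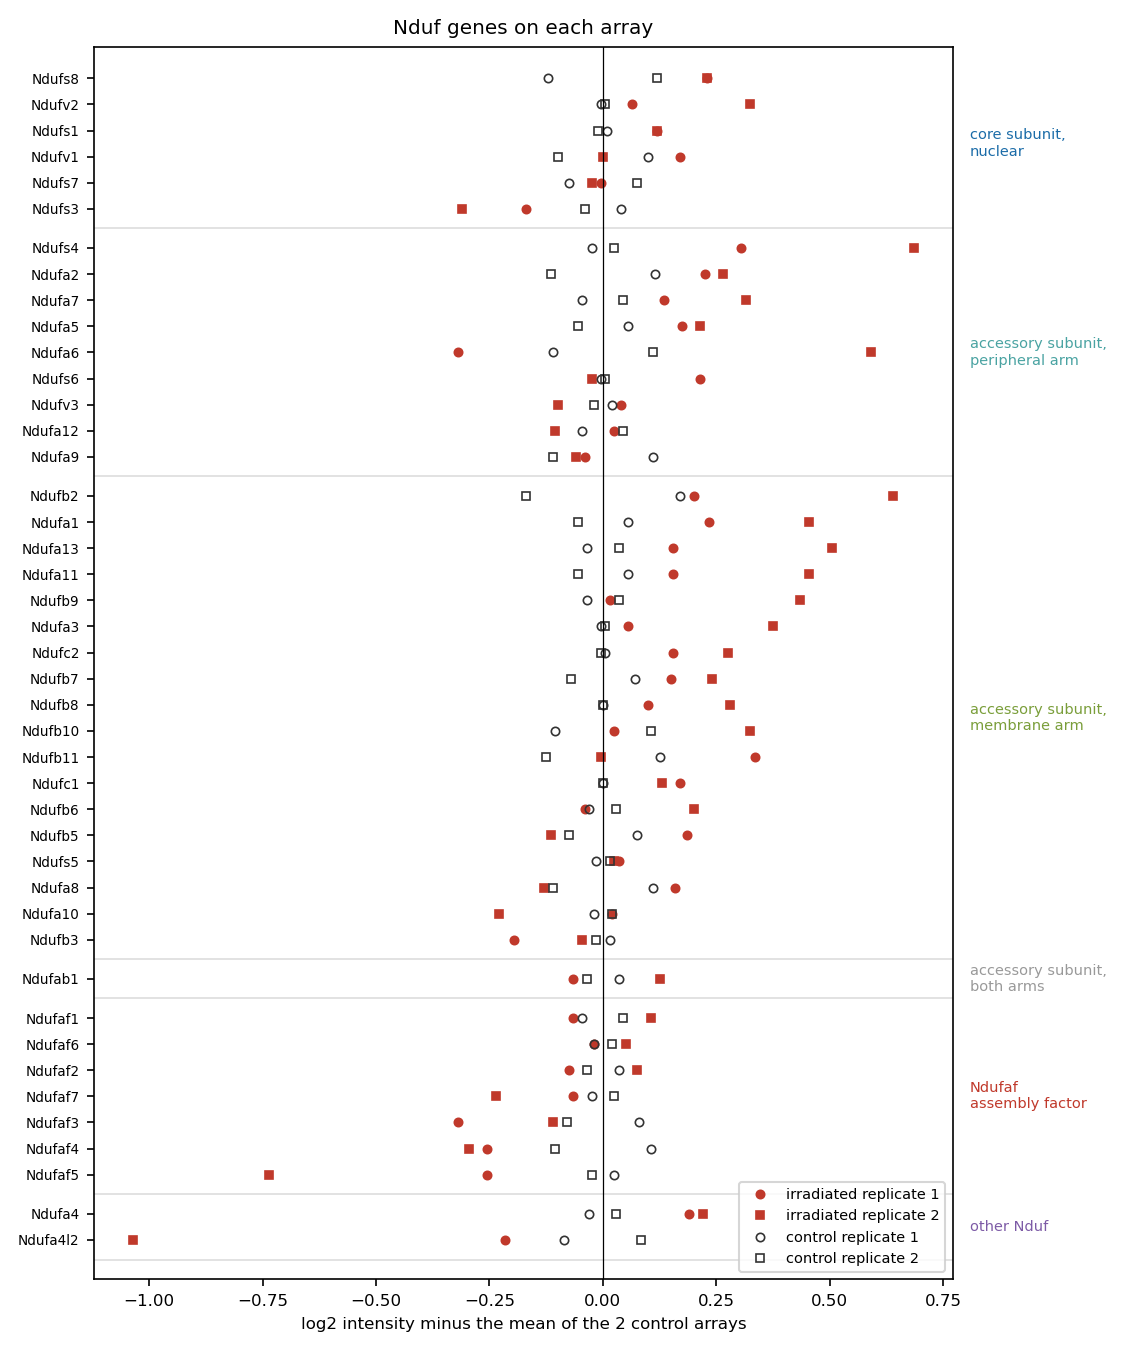
Log2 intensity of each of 43 Nduf genes on each array, relative to the mean of the 2 control arrays; filled symbols are irradiated, open symbols control, circles replicate 1 and squares replicate 2. Among membrane-arm subunits most filled symbols lie to the right of 0, whereas Ndufaf3, Ndufaf4, Ndufaf5 and Ndufaf7 lie to the left.

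Among the nuclear core subunits, 6 were measured and 4 were higher, with a median log2 difference of 0.10. Ndufs8, which carries a pair of iron-sulfur clusters near the membrane, had 10.63 and 10.63 on the irradiated arrays, against 10.28 and 10.52 on the control arrays. Ndufv2, an iron-sulfur subunit of the NADH-oxidising tip, had 11.63 and 11.89 against 11.56 and 11.57 in controls. Both irradiated values lay above both control values for these genes, with differences of 0.23 ± 0.13 for Ndufs8 and 0.195 ± 0.135 for Ndufv2 (SE of the fit). Ndufs8 ranged from 0.11 without control replicate 1 to 0.35 without control replicate 2, and Ndufv2 from 0.065 without irradiated replicate 2 to 0.325 without irradiated replicate 1. Ndufs1, the largest iron-sulfur protein of the complex, had 9.31 and 9.31 on the irradiated arrays, against 9.20 and 9.18 on the control arrays, and its groups were apart as well.

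Of the other core subunits measured, Ndufv1 was also higher, by 0.085, whereas Ndufs7 (−0.015) and Ndufs3 were lower. Ndufv1, which binds the flavin and NADH, had 10.14 and 9.97 in irradiated against 10.07 and 9.87 in control cells, and the groups overlapped. Ndufs7, which lies next to the ubiquinone site, had 12.84 and 12.82 against 12.77 and 12.92, with both irradiated values between the control values. Ndufs3, a core protein that helps nucleate the ubiquinone module, had 10.40 and 10.26 on the irradiated arrays, against 10.61 and 10.53 on the control arrays. It was the lowest of all subunits, with a log2 difference of −0.24 (limma adjusted p = 0.548) and no overlap between the groups. A second Ndufs3 probe set showed the same order, with 10.12 and 10.00 in irradiated and 10.32 and 10.20 in control cells.

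Of the 9 accessory subunits of the peripheral arm, 6 were higher and 3 lower, with a median of 0.135. Ndufs4, an accessory subunit near the NADH-oxidising tip whose loss causes Leigh syndrome in humans, had the highest difference of all Nduf genes. It measured 10.76 and 11.14 on the irradiated arrays, against 10.43 and 10.48 on the control arrays. Both irradiated arrays were above both controls, the second one further, and the log2 difference was 0.495 with a 95% interval from 0.10 to 0.89 (1.41-fold, limma adjusted p = 0.442). Leaving out irradiated replicate 2 gave 0.305, and leaving out irradiated replicate 1 gave 0.685.

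Ndufa2, a small protein with a thioredoxin-like fold, had 9.88 and 9.92 in irradiated against 9.77 and 9.54 in control cells. Ndufa7 had 10.07 and 10.25 against 9.89 and 9.98, and Ndufa5 had 8.57 and 8.61 against 8.45 and 8.34. The groups were apart for each of these genes, with log2 differences between 0.195 and 0.245. Ndufa6, which anchors the acyl carrier protein Ndufab1 on the peripheral arm, was the least reproducible member, with 9.95 and 10.86 on the irradiated arrays and 10.16 and 10.38 on the control arrays. Its irradiated values lay on either side of the controls. Ndufa9, Ndufa12 and Ndufv3 had differences between −0.05 and −0.03 with overlapping groups; that of Ndufv3 was 0.005 after each array was centred on its median.

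Among core, peripheral-arm and membrane-arm genes, the accessory subunits of the membrane arm had the most uniform direction. Of 18 measured, 16 were higher and 2 lower, with a median log2 difference of 0.18, and 10 were apart upward and 1 downward (17.8% and 23.9% of all genes). Without irradiated replicate 1, 13 were higher and 5 lower, against 16 and 2 without irradiated replicate 2. Ndufa1, a small single-span protein of the membrane arm, had 8.65 and 8.87 on the irradiated arrays, against 8.47 and 8.36 on the control arrays. The log2 difference was 0.345 with a 95% interval from 0.01 to 0.68 (1.27-fold, limma adjusted p = 0.478). Ndufb2, another small membrane-arm subunit, had 6.83 and 7.27 in irradiated against 6.80 and 6.46 in control cells. Its difference of 0.42 rested on wide replicates in both groups, and irradiated replicate 1 was only just above the higher control. It was 0.20 without irradiated replicate 2, 0.64 without irradiated replicate 1 and 0.25 without control replicate 2.

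Ndufa13, also known as GRIM-19, had 8.89 and 9.24 on the irradiated arrays, against 8.70 and 8.77 on the control arrays. Ndufc2, a subunit of the part of the membrane arm near the peripheral arm, had 12.12 and 12.24 against 11.97 and 11.96. For both genes the irradiated values lay above the controls, by 0.33 for Ndufa13 and 0.215 for Ndufc2 on average. Ndufa13 was at 0.155 without irradiated replicate 2 and at 0.505 without irradiated replicate 1. The lowest membrane-arm genes were Ndufb3, with 8.03 and 8.18 in irradiated and 8.24 and 8.21 in control cells, and Ndufa10, with 11.37 and 11.12 against 11.33 and 11.37. The groups were apart for Ndufb3 by 0.03 and overlapped for Ndufa10. The Ndufb3 difference of −0.12 was −0.045 without irradiated replicate 1, against −0.195 when replicate 2 was left out instead. Ndufab1, the mitochondrial acyl carrier protein that is bound at both arms, had 9.80 and 9.99 in irradiated and 9.90 and 9.83 in control cells, with overlapping groups.

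The median difference was 0.10 for core, 0.135 for peripheral-arm and 0.18 for membrane-arm genes. These medians were not tested against each other. Against the control mean, irradiated replicate 1 had medians of 0.09 for core, 0.135 for peripheral-arm and 0.15 for membrane-arm genes, and irradiated replicate 2 had 0.06 for core, 0.215 for peripheral-arm and 0.26 for membrane-arm genes. In the membrane arm 12 of 18 genes were higher on irradiated replicate 2 than on replicate 1.

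The 7 Ndufaf genes were the other side of the comparison. Ndufaf5, a methyltransferase-family protein known in humans to hydroxylate an arginine of NDUFS7, had 7.17 and 6.69 on the irradiated arrays, against 7.45 and 7.40 on the control arrays. Both irradiated values were lower, and the log2 difference was −0.495 with a 95% interval from −0.95 to −0.04 (limma adjusted p = 0.461). Leaving out irradiated replicate 2 gave −0.255, and leaving out irradiated replicate 1 gave −0.735. Ndufaf4 and Ndufaf3 are partners that act early, on the module around the ubiquinone site. Ndufaf4 had 7.76 and 7.72 in irradiated against 8.12 and 7.91 in control cells, and Ndufaf3 had 9.41 and 9.62 against 9.81 and 9.65. The groups were apart downward for both, with differences of −0.275 for Ndufaf4 and −0.215 for Ndufaf3. Without control replicate 1 they were −0.17 for Ndufaf4 and −0.135 for Ndufaf3, and without irradiated replicate 1 Ndufaf3 was at −0.11.

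Ndufaf7, a mitochondrial arginine methyltransferase needed for early assembly, had 7.68 and 7.51 in irradiated against 7.72 and 7.77 in control cells. Its groups were apart by 0.04, and the difference of −0.15 was −0.065 without irradiated replicate 2, against −0.235 when replicate 1 was left out instead. The remaining factors overlapped between the groups. Ndufaf1, a member of the complex that builds the membrane arm, had 8.74 and 8.91 against 8.76 and 8.85. Ndufaf2, the paralogue of Ndufa12 that holds its place during assembly, had 7.58 and 7.73 against 7.69 and 7.62. Ndufaf6, an early factor of the phytoene synthase family, had 7.03 and 7.10 against 7.03 and 7.07. The 95% intervals of these 3 differences ran from −0.30 to 0.33 at their widest, so a shift as large as the median of the subunits would not have been detected.

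**Figure D2:**
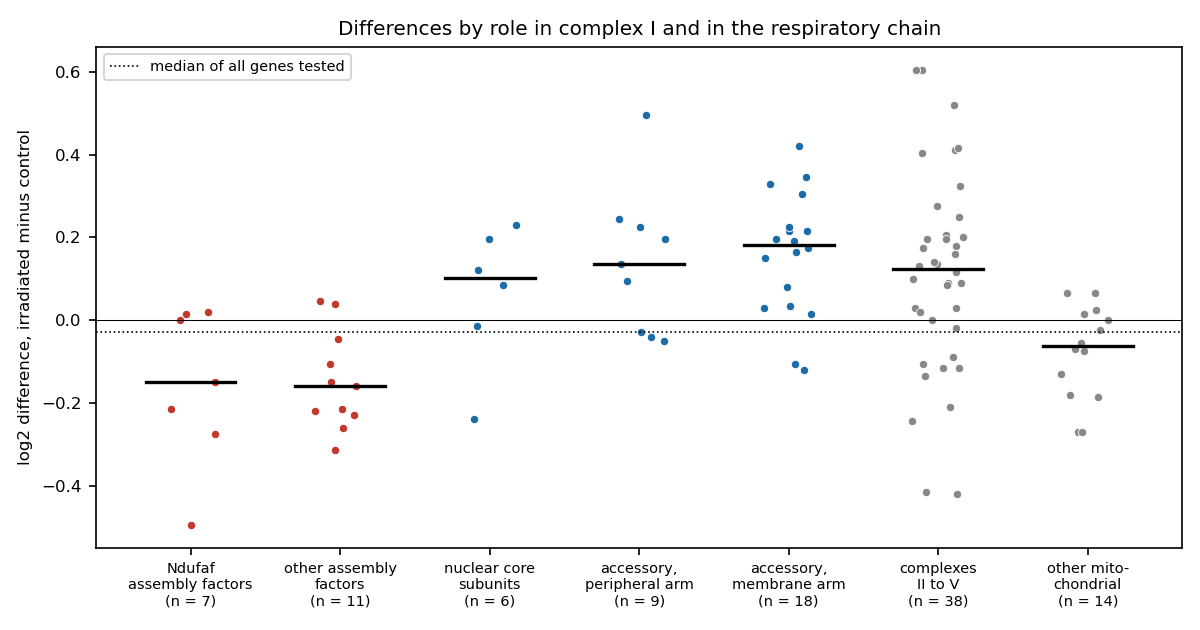
Log2 difference of irradiated minus control means for each gene by its role, with a bar at the median of each group of genes; the dotted line is the median of all genes tested, −0.03. The medians were −0.15 for 7 Ndufaf genes and −0.16 for 11 other assembly factors, against 0.10, 0.135 and 0.18 for core, peripheral-arm and membrane-arm subunits.

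The subunit median exceeded the Ndufaf median by 0.31 on the log2 scale. The distance was 0.20 on irradiated replicate 1 and 0.32 on irradiated replicate 2, each against the control mean, while the 2 control arrays differed in the same quantity by 0.045. Of the 34 subunits, 26 had a difference above 0.02, the highest value among the Ndufaf genes, while 43.4% of all genes were above 0. That highest value, of Ndufaf1, had an SE of 0.12. On both irradiated arrays 19 subunits lay above the control mean and 4 below it, whereas 0 Ndufaf genes lay above it on both and 4 lay below. Over all genes, 25.5% lay above and 34.5% below on both. No test of the list was made, since its genes were measured on the same arrays.

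Assembly factors without an Nduf name had a similar split. Of 11 measured, 2 were higher and 9 lower, with a median of −0.16, and 0 were apart upward and 6 downward (17.8% and 23.9% of all genes). Lyrm2, a factor for the NADH-oxidising module, had 7.57 and 7.63 on the irradiated arrays, against 7.90 and 7.93 on the control arrays (log2 difference −0.315, limma adjusted p = 0.453). Ecsit, a partner of Ndufaf1, had 8.02 and 7.87 against 8.25 and 8.16. Its groups and those of Lyrm2 were apart. Acad9 and Tmem126b, also partners of Ndufaf1, had differences of −0.045 and 0.04 with overlapping groups. Without irradiated replicate 2 all 11 were lower, as were all 7 Ndufaf genes, while 27 subunits were higher and 7 lower. Without irradiated replicate 1, 2 of these factors were higher and 9 lower, 3 Ndufaf genes were higher and 4 lower, and 22 subunits were higher and 11 lower.

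Of the 7 core subunits that mitochondrial DNA encodes, 1 was measured by a probe set with 1 symbol. ND3 had 13.28 and 13.79 on the irradiated arrays, against 12.89 and 13.06 on the control arrays. Both irradiated values were above the controls, the second one further, and the log2 difference was 0.56 (limma adjusted p = 0.447).

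Subunits of complexes II to V, the rest of the respiratory chain, had a similar split. Of 38 measured, 27 were higher and 10 lower, with a median of 0.12, and 20 were apart upward and 4 downward (17.8% and 23.9% of all genes). A difference between these and the complex I subunits was not tested. Their order across the irradiated arrays was not the same: the median against the control mean was 0.13 on replicate 1 and 0.06 on replicate 2 for complexes II to V, against 0.13 and 0.21 for complex I. Other mitochondrial proteins (citrate synthase, import and chaperone proteins and porins) had 4 of 14 genes higher and 9 lower, with a median of −0.06.

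**Figure D3:**
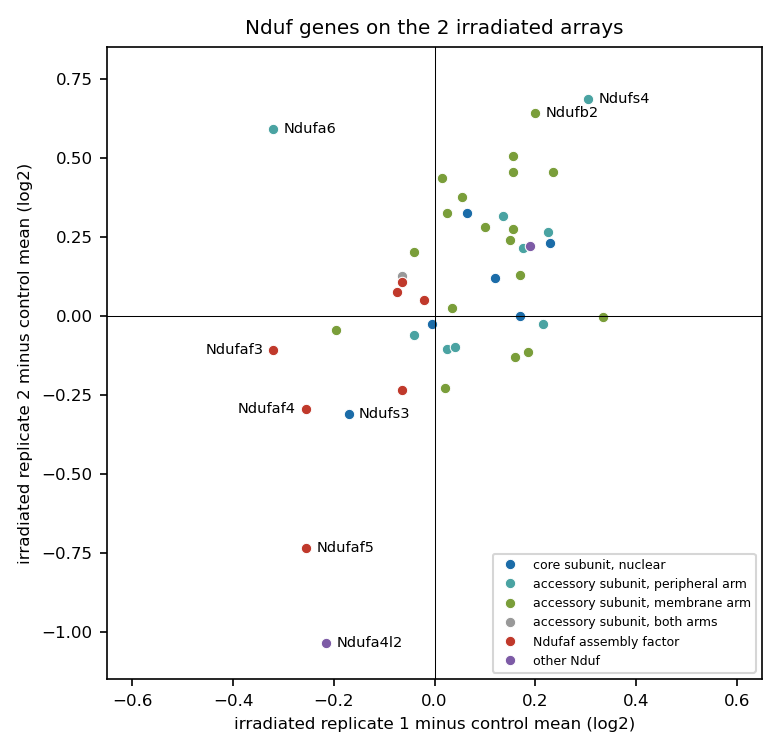
Each Nduf gene by its log2 value on irradiated replicate 1 (x axis) and replicate 2 (y axis), both relative to the control mean, coloured by role. Of 43 genes, 20 lie above 0 on both arrays and 9 below 0 on both, and Ndufa6 lies below 0 on replicate 1 and above it on replicate 2.

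Ndufa4 and Ndufa4l2 carry the family name without being counted with complex I. Ndufa4 is now placed in complex IV, and had 10.84 and 10.87 in irradiated against 10.62 and 10.68 in control cells. Both irradiated arrays lay above the controls, by 0.205 on average. Ndufa4l2, its paralogue known as a target of the hypoxia factor HIF1, had 6.10 and 5.28 on the irradiated arrays, against 6.23 and 6.40 on the control arrays. It was the 1 Nduf gene that differed by at least 1.5-fold, as did 588 of all 19938 genes. Its log2 difference was −0.625 (limma adjusted p = 0.516). Most of that came from irradiated replicate 2, without which the difference was −0.215. It was also the 1 Nduf gene dimmer than the median gene.

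Several Nduf genes have near-identical copies in the mouse genome, and 7 such copies or pseudogenes are in the RefSeq gene table (Ndufa11b, Ndufa12-ps, Ndufab1-ps, Ndufb4b, Ndufb4c, Ndufs5-ps and Ndufs6b). Without the probes' own sequences, signal from a copy cannot be told apart from the gene. The probe sets differed in size for Ndufa11, a membrane-arm subunit, where the one used had 9.50 and 9.80 in irradiated against 9.40 and 9.29 in control cells, and the other had 9.26 and 9.30 against 9.28 and 9.20. The first was apart upward, by 0.305 on average (0.155 without irradiated replicate 2), and the second overlapped with a difference of 0.04. For Ndufs5, a membrane-arm subunit of the intermembrane side, the probe set of the gene alone was apart upward by a gap of 0.01, with a difference of 0.03, and the one that also lists Ndufs5-ps had 7.93 and 8.03 against 7.57 and 7.56. The second was apart upward by a gap of 0.36, as were 17.9% of 23410 annotated probe sets, and it passed an unadjusted p of 0.05, as did 4.82% in that direction. Both probe sets listing Ndufb4 with Ndufb4b differed by 0.085, with overlapping groups.

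For Ndufc1, both probe sets were apart upward, with 10.54 and 10.50 in irradiated against 10.37 and 10.37 in control cells on the one used and 10.32 and 10.25 against 10.01 and 9.95 on the other. For Ndufb11 and Ndufab1 the groups overlapped on both.

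**Figure D4:**
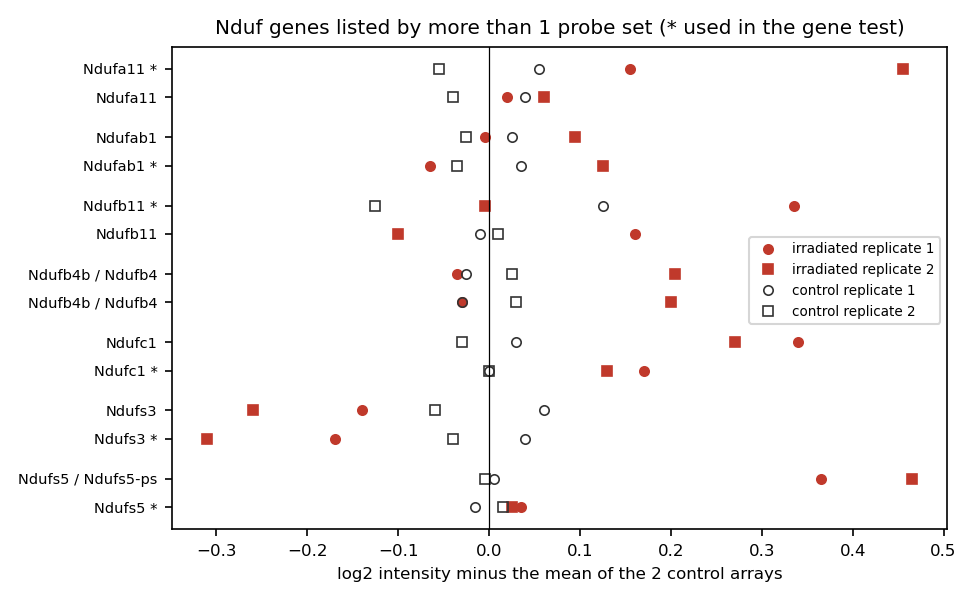
Nduf genes listed by more than 1 probe set, each row 1 probe set, with log2 intensity on each array relative to the control mean; an asterisk marks the probe set used in the gene test. Both rows of Ndufs3 lie to the left of 0 for the irradiated arrays and both rows of Ndufc1 to the right, whereas the rows of Ndufa11 (0.305 and 0.04) and Ndufs5 (0.03 and 0.415) differ in size.

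Promoters were compared because nuclear genes of the respiratory chain are known to share binding motifs of NRF1 and of ETS factors. Sequences came from RefSeq (GRCm38.p6), and 39 of 44 Nduf genes, Ndufb4 included, matched an entry. In 300 bases around the start, of which 250 lie before it, the NRF1 core GCGCATG was found on either strand in 7 of 39 genes (17.9%), against 3.91% of 32851 promoters. It was present in 5 of 32 subunit genes (Ndufa6, Ndufa8, Ndufa11, Ndufb6 and Ndufb8) and in 2 of 6 Ndufaf genes (Ndufaf4 and Ndufaf5). The ETS core CCGGAAG was found in 5 of 39 genes (12.8%), namely Ndufaf1, Ndufb6, Ndufb7, Ndufs3 and Ndufs8, against 8.86% of all. Both motifs were thus found in genes that were higher and in genes that were lower. In these Nduf genes no hit of 1 motif overlapped a hit of the other.

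The 250 bases before the start are shown for the 3 genes past an unadjusted p of 0.05 (Ndufs4, Ndufa1 and Ndufaf5) and for 1 subunit and 1 assembly factor with an NRF1 core (Ndufb6 and Ndufaf4). They lie at chr13:114388095-114388344 (minus strand) for Ndufs4, chrX:37191239-37191488 (minus strand) for Ndufa1, chr4:40279422-40279671 (minus strand) for Ndufb6, chr2:140170396-140170645 (plus strand) for Ndufaf5 and chr4:24897833-24898082 (plus strand) for Ndufaf4, all in GRCm38.p6. Capitals mark the motifs. In Ndufaf4 the core lies on both strands as overlapping hits at bases −113 and −110 from the start, and again at base 2 after it, outside the stretch shown. In Ndufb6 the NRF1 core begins at base −77 and the ETS core, on the other strand, at base −232. The NRF1 cores of Ndufaf5 begin at bases 17 and 20 after the start, on opposite strands and also outside the stretch shown, and neither motif is in the windows of Ndufs4 and Ndufa1.
Ndufs4: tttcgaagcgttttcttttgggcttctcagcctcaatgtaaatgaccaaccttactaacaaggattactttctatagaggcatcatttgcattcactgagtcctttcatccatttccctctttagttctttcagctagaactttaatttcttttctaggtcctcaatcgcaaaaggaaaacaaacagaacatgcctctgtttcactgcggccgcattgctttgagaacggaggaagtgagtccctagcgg
Ndufa1: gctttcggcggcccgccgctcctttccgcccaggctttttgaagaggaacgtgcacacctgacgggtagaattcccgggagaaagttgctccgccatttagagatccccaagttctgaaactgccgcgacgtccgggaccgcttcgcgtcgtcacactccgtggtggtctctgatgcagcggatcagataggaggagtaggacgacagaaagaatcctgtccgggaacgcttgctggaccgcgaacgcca
Ndufb6: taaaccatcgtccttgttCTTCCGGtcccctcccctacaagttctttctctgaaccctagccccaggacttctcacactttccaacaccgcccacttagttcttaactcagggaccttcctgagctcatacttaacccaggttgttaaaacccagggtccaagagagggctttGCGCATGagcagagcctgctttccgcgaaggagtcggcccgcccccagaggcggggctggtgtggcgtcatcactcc
Ndufaf5: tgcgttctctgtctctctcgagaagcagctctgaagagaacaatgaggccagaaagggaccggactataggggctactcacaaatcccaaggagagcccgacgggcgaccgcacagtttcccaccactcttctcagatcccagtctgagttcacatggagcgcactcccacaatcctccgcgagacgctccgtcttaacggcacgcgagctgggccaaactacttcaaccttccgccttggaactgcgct
Ndufaf4: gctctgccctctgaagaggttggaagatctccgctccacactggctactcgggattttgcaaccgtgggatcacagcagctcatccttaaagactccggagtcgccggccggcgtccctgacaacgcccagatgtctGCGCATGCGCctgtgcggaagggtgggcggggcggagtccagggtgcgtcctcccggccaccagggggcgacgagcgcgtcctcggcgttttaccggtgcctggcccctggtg

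Some marker lists of other kinds also went mostly 1 way on these arrays. Over all genes 43.4% were higher and 55.4% lower. Lower genes were 9 of 11 in the T-cell list, 5 of 6 in the pan-leukocyte list and 3 of 4 in an erythroid list. Of 10 macrophage genes 5 were higher and 5 lower, with a median of −0.02. Of 6 B-cell genes 2 were higher and 3 lower, with a median of −0.05. A mitosis list had 9 of 9 genes higher with a median of 0.67, and its mean was 10.99 and 10.65 on the irradiated arrays, against 10.04 and 10.11 on the control arrays. The epithelial list had 6 of 6 lower with a median of −0.605, with means of 11.04 and 10.41 against 11.40 and 11.33. Of 11 neutrophil genes 9 were lower with a median of −0.47, and the list means were 6.105 and 6.045 against 6.35 and 6.495. These means include Ly6g, a neutrophil surface marker that went the other way, with 12.04 and 11.89 in irradiated against 8.87 and 8.82 in control cells. Ly6g was the 1 gene of 19938 past the adjusted threshold (log2 difference 3.12, limma adjusted p = 0.0117). The mean of the 34 subunit genes was 9.90 and 9.99 on the irradiated arrays, against 9.83 and 9.80 on the control arrays, and that of the 7 Ndufaf genes 7.91 and 7.90 against 8.08 and 8.04. The part of these lists in the complex I values was not tested.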

How the data were processed

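Total RNA of 2 irradiated and 2 control samples (300 ng each) was labelled with biotin and measured on one-colour arrays, per the labels' protocols. The deposited values were log2 intensities of 35556 probe sets made by the authors with RMA, per the submitters' processing notes; its version and the genome build are not stated in the sources used here, and log2 was read from the range of the values. RMA gives the arrays 1 common distribution and compresses folds of dim probe sets. Scan dates were not among the data used, so no batch was tested.

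Gene names came from the platform annotation, with symbols updated through Entrez identifiers (21789 had 1 symbol, 1621 several, 12146 were not listed). The brightest probe set of each gene was used, which gave 19938 genes. Irradiated and control arrays were compared with limma 3.58.1 in R 4.3.3 (lmFit and eBayes without trend, two-sided, 2 residual and 3.48 prior degrees of freedom), with Benjamini-Hochberg adjustment over all genes. Intervals are 95% intervals of that fit. An exact permutation test of 2 against 2 cannot go below p = 0.333 and was not used. The procedure was also run on simulated data with noise of equal size in both groups, unlike these arrays. No result given here rests on that run. Alternatives were filters on dim genes, quantile normalization, centring, averaging the probe sets of a gene, every listed probe set, the replicate number as a block, eBayes with trend or robust, and each array left out.

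Members, gene lists and tests were chosen with earlier results of these data known. All core subunits, all Ndufaf genes, the 5 highest and 5 lowest other Nduf genes, those past an unadjusted p of 0.05 and those with several probe sets were named by rule; members named beyond it were chosen after their values were seen. Promoters came from RefSeq, and those printed were chosen after the values were seen.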

Additional observations from a re-analysis of the deposited data

Results flagged for a closer look

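Among probe sets outside the gene test, 2 drew attention because both irradiated arrays lay above both controls at an unadjusted p under 0.05 (4.82% of 23410 annotated probe sets were higher at that threshold). The probe set listing Ndufs5 and Ndufs5-ps was higher by 0.415 (7.93 and 8.03 in irradiated against 7.57 and 7.56 in control cells, limma adjusted p = 0.462). The second Ndufc1 probe set was higher by 0.305 (limma adjusted p = 0.508), and the one used in the gene test by 0.15.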

How the results depend on the processing

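The count of 0 Nduf genes past the adjusted limma threshold was the same in all 13 alternatives, and the lowest adjusted p of the 29 genes named by rule was 0.125. Of 376 values of these genes, 359 kept direction and side, and 17 turned direction. Outside fits of 3 arrays these were Ndufs7 (0.049 after quantile normalization and 0.02 after centring) and Ndufv3 (0.005 after centring). The filters, the replicate block, the eBayes options and the fit of every listed probe set leave a gene's difference as it was. Direction could not turn in those settings, so their values add no support. A difference of 0 was counted as kept, as for Ndufaf2, which ran from −0.075 to 0.075 without 1 array. Without 1 array, the values ran from −0.005 to 0.335 for Ndufb11, −0.23 to 0.02 for Ndufa10, −0.105 to 0.025 for Ndufa12, −0.065 to 0.125 for Ndufab1, −0.065 to 0.105 for Ndufaf1, −0.02 to 0.05 for Ndufaf6, −0.1 to 0.04 for Ndufv3, −0.16 to 0.06 for Ndufa9, −0.09 to 0.06 for Ndufs7 and −0.015 to 0.185 for Ndufv1.

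The subunit median stayed above 0 and the Ndufaf median below 0 in every setting. Without 1 array they ran from 0.1275 to 0.2075 and from −0.135 to −0.075, their distance from 0.2025 to 0.3175, and the median of all Nduf genes from 0.055 to 0.12. The distance was 0.321 after quantile normalization and 0.2775 over every listed probe set. Where 1 array was left out, the lone array of its group makes overlap rarer. The share of all genes apart is not given for those fits, so the counts cannot be read as a change. Nduf genes apart numbered 21 to 26 upward and 8 to 13 downward without 1 array, against 18 and 7 with all arrays. Those past an unadjusted p under 0.05 numbered 0 to 11 higher and 0 to 3 lower; the 11 and 3 came without irradiated replicate 1, where only the control arrays gave a spread, and 0 of either without a control array. Over every listed probe set, 4 Nduf probe sets were higher at an unadjusted limma p under 0.05, as were 4.82% of 23410. Over all genes the unadjusted count ran from 381 to 5924 without 1 array, against 2055, and the adjusted count was 0 to 0, against 1, and 6 over every listed probe set.

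The labels give both groups the numbers 1 and 2, and nothing says that a number marks a shared mouse or day. Deviations of same-numbered arrays correlated at 0.0676 over genes. With the replicate block, 1 Nduf gene was higher and 1 lower at an unadjusted limma p under 0.05. Of all 19938 genes, 1705 passed that unadjusted threshold and 0 passed the adjusted one. With 2 arrays a group, differences as small as those of most Nduf genes lay within the error of the fit.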

Other observations

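Genes of mitochondrial biogenesis had a split unlike that of the complex I subunits, a difference that was not tested. Of 16 measured, 5 were higher and 11 lower in irradiated cells, with a median log2 difference of −0.07. The groups were apart upward for 2 and downward for 5 (17.8% and 23.9% of all genes). Ppargc1b, a coactivator of mitochondrial genes, had 7.33 and 7.19 on the irradiated arrays, against 7.61 and 7.62 on the control arrays, and Twnk, the helicase of mitochondrial DNA, had 7.30 and 7.35 against 7.72 and 7.56. Ppargc1a, the related coactivator, had 5.30 and 5.95 against 5.08 and 5.00. It was the 1 gene of this list dimmer than the median gene, and irradiated replicate 2 lay further from the controls. The groups were apart for Ppargc1b, Twnk and Ppargc1a, and limma adjusted p-values were 0.443, 0.478 and 0.481. Of the transcription factors whose motifs were searched, Gabpa, an ETS factor, had 9.08 and 9.21 in irradiated and 9.31 and 9.34 in control cells, with the groups apart. Nrf1 had 8.54 and 8.30 in irradiated and 8.31 and 8.36 in control cells, with overlapping groups and a difference of 0.085.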
